A study of Mus musculus with 6 samples.

Results

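The 10 genes described here are cyclins and cyclin-dependent kinases (CDKs) of the cell cycle: the D-type cyclins Ccnd1, Ccnd2 and Ccnd3, the E-type cyclins Ccne1 and Ccne2, the later cyclins Ccna2 and Ccnb1, and the kinases Cdk1, Cdk2 and Cdk4. They were chosen by gene symbol from a table of 18943 genes, in which each symbol matched 1 gene. The study asked how ligands of G protein-coupled receptors act on the quiescence of muscle stem cells (MuSCs), the resident stem cells of skeletal muscle. Its RNA-seq series compared MuSCs given the peptide Endothelin-3 (ET-3) or the peptide Neurotensin (NT) with MuSCs given the solvent DMSO. In assays of cells, the paper reports that both ligands held back MuSC proliferation, measured by EdU uptake or staining for KI67. How those assays relate to the RNA values below was not tested. All 6 libraries came from MuSCs of wild-type C57BL/6 mice, 8 weeks old, which had been purified by FACS and then kept in culture for 5 days. DMSO, ET-3 and NT had 2 libraries each, and the labels give 100 nM for both ligands, whereas the methods of the paper name other doses. The study describes its RNA-seq samples as biological triplicates, of which 2 libraries per group were analysed here. The labels tie no library to a culture or animal, so the p-values below measure only the spread between these libraries, which may be technical.

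Cyclins are the regulatory subunits that switch on CDKs, and the kinase subunits have little activity without them. D-type cyclins activate Cdk4 and Cdk6 when growth signals arrive and start the phosphorylation of the retinoblastoma protein, cyclin E with Cdk2 takes the cell into DNA synthesis, cyclin A2 acts during and after DNA synthesis, and cyclin B1 with Cdk1 drives mitosis. In muscle, resting MuSCs lie outside the cycle, activated MuSCs enter it, and myoblasts that differentiate leave it for good, with cyclin D3 known to persist in differentiating muscle cells.

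The values are reads on the exons of each gene, scaled per library and rounded, and are called scaled reads below. They summed to 4214458 to 4600575 per library, which corresponds to between 3629104 and 5396233 reads on genes once the estimated scaling is undone. At this depth the counting error of a single value of the 10 genes was between 2.05% and 8.11%. The 2 ET-3 libraries differed from each other by less than sampling noise over all genes (mean chi-square per gene 0.888), and so did the 2 NT libraries (0.941), while the DMSO libraries differed by more (1.44). Tests are therefore also given with the 2 libraries of each ligand merged into their mean. Pax7, the transcription factor that defines MuSCs, was present in all libraries, at 857 and 1070 scaled reads under DMSO, 1754 and 1730 under ET-3, and 1653 and 1599 under NT. Of the other MuSC markers, Cd34, a surface protein of resting MuSCs, had 5 and 1 in the DMSO libraries, 330 and 264 in those of ET-3, and 286 and 318 in those of NT, and Calcr, a receptor of resting MuSCs, had at most 3 scaled reads in any library. Cdh15 went the other way, with 1547 and 1746 under DMSO, 483 and 462 under ET-3, and 496 and 436 under NT. So did Spry1, with 269 and 292, 119 and 119, and 120 and 137 in the same order. The MuSC markers thus moved in both directions, with the counts given below.

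With either ligand, transcripts of most cell cycle cyclins and CDKs were more abundant than with DMSO, and Ccnd3 was less abundant. In 9 of the 10 genes all 4 treated libraries lay above both DMSO libraries, and in Ccnd3 all 4 lay below them. Over all 13921 genes tested, 33.2% lay wholly above and 36.4% wholly below, so separation from DMSO was common in this table. With ET-3, 8 of the 10 rose at an adjusted p of at most 0.05, against 30.6% of all tested genes, and 1 fell, against 33.2%. With NT, 8 rose, against 29.7%, and 1 fell, against 32.5%. The gene that did not pass was Cdk2 with ET-3 and Cdk4 with NT, and with scaling to library totals instead 9 rose and 1 fell with each ligand. That scaling moved the median of all tested genes from -0.01 to 0.08 with ET-3 and to 0.10 with NT, and the share of calls in the upward direction from 48.0% to 55.6% and from 47.7% to 58.3%. The median log2 fold change of the 10 genes was 0.54 with ET-3 and 0.47 with NT, beside -0.01 over all tested genes in each comparison, and the distance between the median of the 10 and that of all genes was 0.55 and 0.48 in either scaling. In bulk RNA a change in the share of cells that cycle and a change in the RNA per cell cannot be told apart. All 10 markers of muscle differentiation, among them Myog and Myh3, fell with each ligand, and their summed level was 33590 to 36901 scaled reads under DMSO, 1814 to 2145 under ET-3 and 1906 to 2327 under NT. The part of differentiated cells in the values of the cyclins and CDKs was not tested.

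**Figure D1:**
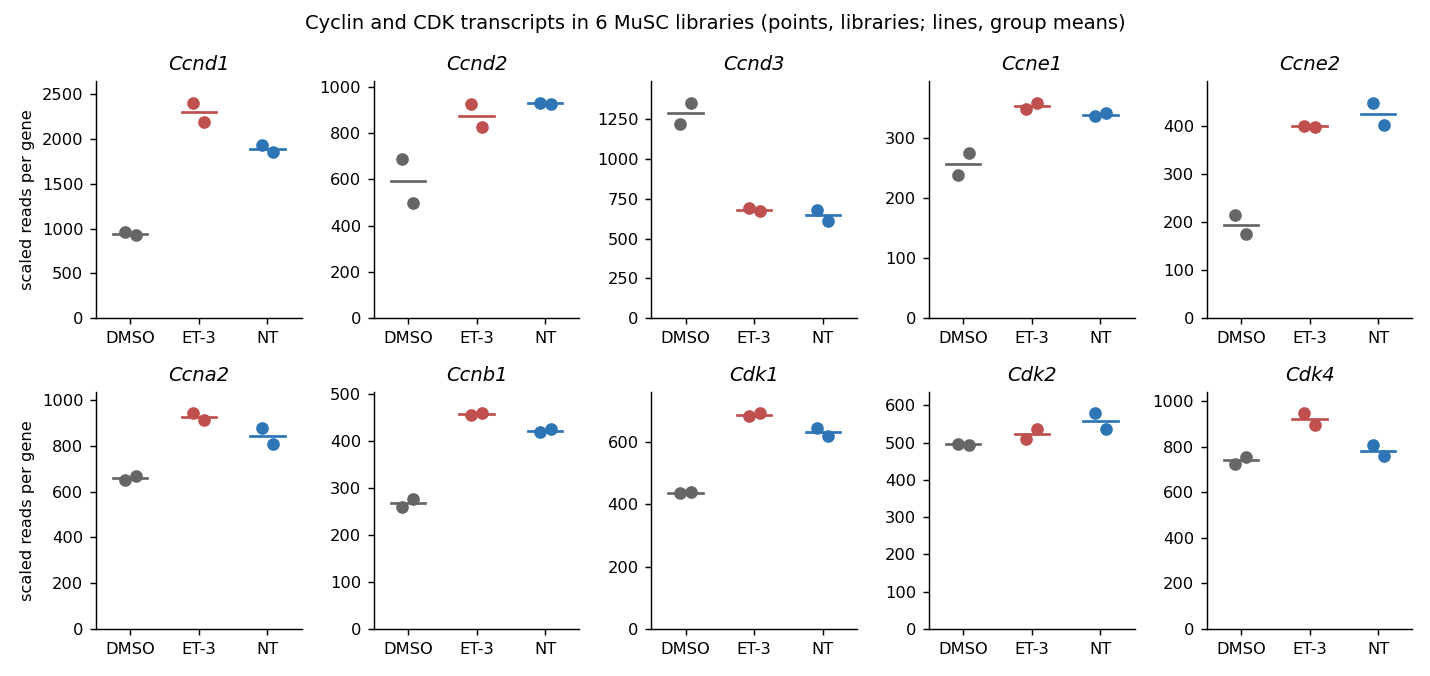
Scaled reads per gene (vertical axes, each from 0) of the 10 cyclins and CDKs in the 2 DMSO, 2 ET-3 and 2 NT libraries (points), with group means (lines). The treated libraries lie above the DMSO libraries in 9 panels and below them in the panel of Ccnd3.

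Fold changes are given on the log2 scale of the value plus 1, with the standard error (SE) of limma and the Benjamini-Hochberg adjusted p over all tested genes, from the fit of all 6 libraries, in which a gene has the same SE for both ligands. Positions are on GRCm38. A change of at least 2-fold was reached by 2 of the 10 genes with each ligand, Ccnd1 and Ccne2, both upwards. Over all tested genes, 6.62% rose and 14.9% fell by at least 2-fold with ET-3, and 7.30% rose and 13.2% fell with NT. Ccnd1 lay just inside the 2-fold limit with NT (log2 fold change 1.00) and Ccnd3 just outside it (-0.99). Without the second DMSO library the count was 1 with ET-3, where Ccne2 came to 0.89, and 0 with NT, where Ccnd1 came to 0.97 and Ccne2 to 0.98. Without the first DMSO library it was 2 with ET-3 and 3 with NT, where Ccnd3 came to -1.07.

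The 3 D-type cyclins did not move together. Ccnd1, the cyclin that growth signals induce most directly (ENSMUSG00000070348, chr7:144929931-144939925, minus strand), had 964 and 926 scaled reads under DMSO, 2409 and 2197 under ET-3, and 1930 and 1854 under NT. The ET-3 libraries were the highest, and the direct comparison of the ligands is given below. Ccnd1 rose 2.43-fold with ET-3 (log2 fold change 1.28, SE 0.05, adjusted p 2.57e-08) and 2.00-fold with NT (1.00, adjusted p 1.49e-07). Of all tested genes, 4.53% increased more than Ccnd1 with ET-3 and 7.75% with NT. Of the 4709 exonic bases of Ccnd1, 23.4% are shared with the neighbouring gene LTO1 on the other strand, and reads there may have been left out of the count as reads on several genes.

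Ccnd2, a D-type cyclin that also partners Cdk4 and Cdk6 (ENSMUSG00000000184, chr6:127125162-127152193, minus strand), had 686 and 498 scaled reads under DMSO, 926 and 824 under ET-3, and 931 and 925 under NT. The treated libraries lay above DMSO, but the DMSO libraries themselves differed 1.38-fold, which is 5.24 counting errors. Ccnd2 rose with ET-3 (log2 fold change 0.58, SE 0.12, adjusted p 0.00175) and with NT (0.67, adjusted p 0.000753). These sizes depend on the DMSO libraries. Without the first, the log2 fold changes were 0.81 and 0.90, and without the second 0.35 and 0.44. Without the first ET-3 library the adjusted p for ET-3 was 0.0613.

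Ccnd3, the D-type cyclin of differentiating muscle (ENSMUSG00000034165, chr17:47505051-47599691, plus strand), had 1220 and 1354 scaled reads under DMSO, 690 and 673 under ET-3, and 681 and 613 under NT. It was the only one of the 10 genes that was lower with the ligands, and its ET-3 and NT libraries overlapped. It fell 1.88-fold with ET-3 (log2 fold change -0.91, SE 0.06, adjusted p 1.05e-06) and 1.99-fold with NT (-0.99, adjusted p 6.51e-07). The annotation also holds a pseudogene, Ccnd3-ps on chromosome 4, which could share reads with this gene.

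Levels of different genes were compared per kilobase (kb) of exon, dividing by all annotated exonic bases of a gene, those covered by exons of other genes included. These bases join the exons of all annotated transcripts of a gene, 4709 for Ccnd1 and 8775 for Ccnd3, and are not the length of 1 transcript. Levels of different genes thus rest on the annotation, and which transcripts the reads came from was not tested. On this scale the 3 D-type cyclins summed to 417 and 404 scaled reads per kb under DMSO, 689 and 631 under ET-3, and 586 and 562 under NT. Ccnd1 made up 49.1% and 48.7% of that sum under DMSO, 74.3% and 74.0% under ET-3, and 69.9% and 70.1% under NT. Ccnd3 made up 33.4% and 38.2% under DMSO, 11.4% and 12.2% under ET-3, and 13.2% and 12.4% under NT. The share of Ccnd1 thus grew at the cost of Ccnd3, while that of Ccnd2 stayed between 13.1% and 17.5% in all 6 libraries. The ratio of Ccnd1 to Ccnd3 per kb was 1.47 and 1.27 under DMSO, 6.51 and 6.08 under ET-3, and 5.28 and 5.64 under NT.

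**Figure D2:**
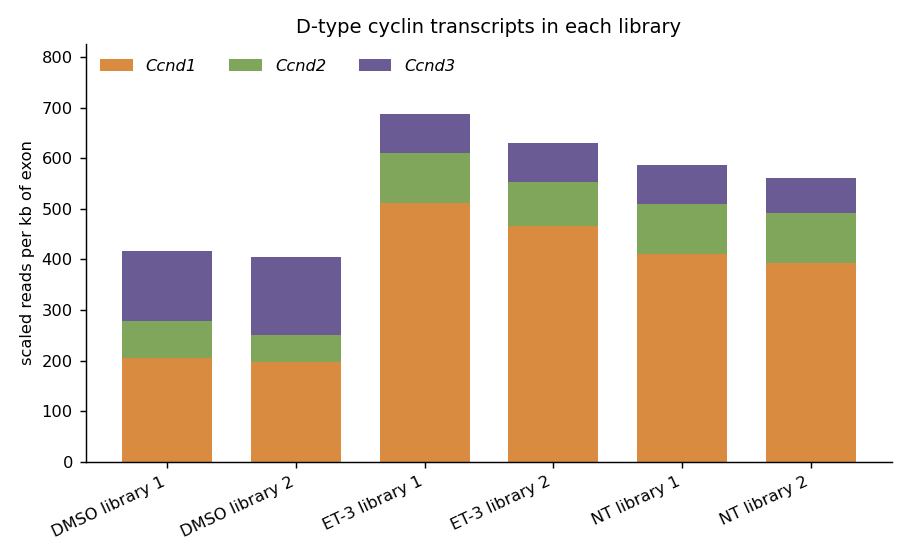
Scaled reads per kb of exon (vertical axis, from 0) of Ccnd1, Ccnd2 and Ccnd3, stacked for each of the 6 libraries. The Ccnd1 part is larger and the Ccnd3 part smaller in the 4 treated libraries than in the 2 DMSO libraries.

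Both E-type cyclins, the partners of Cdk2 at the start of DNA synthesis, were higher with the ligands, with the larger fold changes in Ccne2. Ccne1 (ENSMUSG00000002068, chr7:38097984-38107534, minus strand) had 238 and 274 scaled reads under DMSO, 348 and 358 under ET-3, and 336 and 340 under NT. Ccne2 (ENSMUSG00000028212, chr4:11191351-11204779, plus strand) had 215 and 174 under DMSO, 400 and 397 under ET-3, and 448 and 401 under NT. In both genes every treated library was above both DMSO libraries, and the ligands lay closer to each other than to DMSO. Ccne1 rose by a log2 fold change of 0.47 with ET-3 (SE 0.07, adjusted p 0.000346) and 0.40 with NT (adjusted p 0.000933). Ccne2 rose by 1.04 with ET-3 (SE 0.10, adjusted p 7.41e-06) and 1.13 with NT (adjusted p 4.45e-06). Per kb, Ccne1 made up 59.2% and 67.4% of the E-type sum under DMSO, 53.3% and 54.2% under ET-3, and 49.6% and 52.7% under NT, so that both genes held similar parts in the treated libraries. Of the exonic bases of Ccne2, 17.4% are shared with Ints8 on the other strand. When divided by the bases that no other gene covers, Ccne1 made up 54.5% and 63.1% of the sum under DMSO. It then made up 48.5% and 49.4% under ET-3, and 44.8% and 47.9% under NT.

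Ccna2, the cyclin of DNA synthesis and the phase after it (ENSMUSG00000027715, chr3:36564865-36572150, minus strand), had 651 and 666 scaled reads under DMSO, 942 and 912 under ET-3, and 877 and 807 under NT. Ccnb1, the mitotic cyclin (ENSMUSG00000041431, chr13:100778650-100786570, minus strand), had 260 and 276 under DMSO, 455 and 459 under ET-3, and 419 and 425 under NT. Cdk1, the kinase that binds both (ENSMUSG00000019942, chr10:69335146-69352938, minus strand), had 435 and 439 under DMSO, 682 and 691 under ET-3, and 645 and 619 under NT. In these 3 genes the values were highest with ET-3, next with NT and lowest with DMSO. Compared directly, NT and ET-3 did not differ at the adjusted p threshold in limma (Ccna2 0.172, Ccnb1 0.300, Cdk1 0.206). Ccna2 rose by a log2 fold change of 0.49 with ET-3 (SE 0.05, adjusted p 1.83e-05) and 0.35 with NT (adjusted p 0.000203). Ccnb1 rose by 0.77 with ET-3 (SE 0.06, adjusted p 1.52e-06) and 0.65 with NT (adjusted p 5.13e-06). Cdk1 rose by 0.65 with ET-3 (SE 0.05, adjusted p 1.46e-06) and 0.53 with NT (adjusted p 6.60e-06). Of all pairs among the 10 genes, Ccnb1 and Cdk1 had the most similar profiles over the 6 libraries, with a root mean square difference of 0.06 on the log2 scale after each gene was centred. Of the exonic bases of Ccna2, 12.5% are shared with Exosc9, and Ccnb1 has a pseudogene, Ccnb1-ps, on chromosome 7.

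Cdk2 and Cdk4, the kinases that act before mitosis, had the smallest fold changes of the 10 genes. Cdk2, the partner of cyclins E and A (ENSMUSG00000025358, chr10:128697939-128705031, minus strand), had 496 and 495 scaled reads under DMSO, 511 and 538 under ET-3, and 579 and 537 under NT. The treated values lay above DMSO in every library but by little. With ET-3 the log2 fold change was 0.08 (SE 0.06, 95% interval -0.04 to 0.21, adjusted p 0.227), and with NT Cdk2 rose by 0.17 (adjusted p 0.0225). With libraries scaled to their totals the ET-3 value was 0.17 (adjusted p 0.0181). Without the first NT library the NT value was 0.12 (adjusted p 0.184), and without the first or the second DMSO library its adjusted p was 0.101 or 0.107.

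Cdk4, the partner of the D-type cyclins (ENSMUSG00000006728, chr10:127063534-127067920, plus strand), had 725 and 757 scaled reads under DMSO, 947 and 895 under ET-3, and 807 and 760 under NT. The ET-3 libraries stood above all others, and the lower NT library was 3 scaled reads above the higher DMSO library. Cdk4 rose by a log2 fold change of 0.31 with ET-3 (SE 0.05, adjusted p 0.000440), and with NT the value was 0.08 (95% interval -0.04 to 0.20, adjusted p 0.206), or 0.19 with libraries scaled to their totals (adjusted p 0.00503). Of its exonic bases, 19.7% are shared with Tspan31 on the other strand. The ratio of Cdk1 to Cdk2 per kb was 1.11 and 1.12 under DMSO, 1.68 and 1.62 under ET-3, and 1.40 and 1.45 under NT, so the mitotic kinase gained on Cdk2 in all treated libraries.

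**Figure D3:**
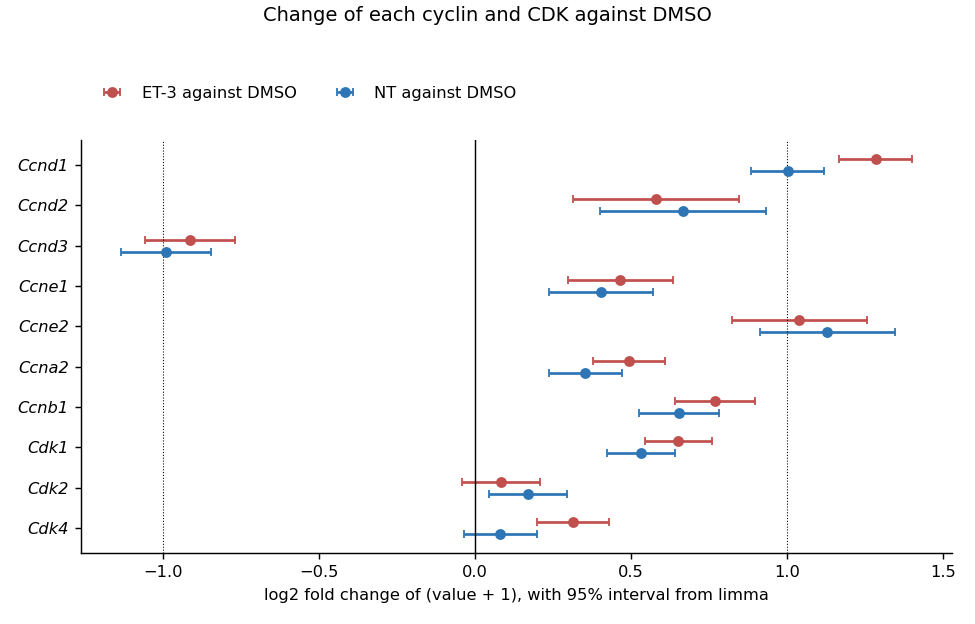
Log2 fold change of the value plus 1 against DMSO (horizontal axis) of each of the 10 genes with ET-3 (red) and NT (blue), with the 95% interval from limma. Dotted lines mark 2-fold, and the intervals of Cdk2 with ET-3 and of Cdk4 with NT include 0.

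When the 2 libraries of each ligand were merged into 1 sample by their mean, 5 of the 10 genes passed for each ligand, namely Ccnd1, Ccnd3, Ccna2, Ccnb1 and Cdk1, against 28.7% of all tested genes with ET-3 and 24.8% with NT. In that fit each ligand has 1 sample, so the spread comes from the 2 DMSO libraries alone, and fold changes stayed close to those above (Cdk4 with ET-3 0.31, Ccne2 with ET-3 1.04). The adjusted p of Ccnd1 was 0.0228 with ET-3 and 0.0270 with NT. Ccne2 came to an adjusted p of 0.0652 and 0.0627, Ccne1 to 0.112 and 0.138, and Ccnd2 to 0.226 and 0.193. Cdk4 with ET-3 (0.0602) and Cdk2 with NT (0.0926) did not pass either, which in a fit with so little replication does not show a weaker effect.

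NT and ET-3 share the DMSO controls, so the ligands were compared directly. At an adjusted p of at most 0.05, 2 of the 10 genes were lower with NT than with ET-3, against 2.05% of all tested genes, and 0 were higher, against 0.647%. At an unadjusted p under 0.05 there were 4, against 19.9% of all tested genes. A 2-fold difference was seen in 0 of the 10, against 0.0790% of all tested genes. Ccnd1 was lower with NT by a log2 fold change of -0.28 (SE 0.05, 95% interval -0.40 to -0.16, adjusted p 0.0379), and Cdk4 by -0.23 (SE 0.05, 95% interval -0.35 to -0.12, adjusted p 0.0490). Neither call held when any 1 of the 4 ligand libraries was left out, with adjusted p between 0.160 and 0.459 for Ccnd1, or when a block for the replicate number was added (0.0691 and 0.0790). The intervals for the other genes bound what may have been missed: the widest was that of Ccnd2, from -0.18 to 0.35, and Ccnd3 lay between -0.22 and 0.07.

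The order of the levels per kb changed with treatment, most of all for Ccnd3 and Ccne2. With DMSO, Cdk4 was highest with a mean of 228 scaled reads per kb, followed by Ccnd1 (201), Ccna2 (161) and Ccnd3 (147), while Ccne2 was lowest (55.7). With DMSO the ranges of Ccnd2 and Ccnb1 overlapped, as did those of Ccnd2 and Ccne2. With ET-3, Ccnd1 was highest (489), followed by Cdk4 (283) and Ccna2 (227), and Ccnd3 was lowest (77.7), with no overlap between neighbours. With NT, Ccnd1 (402), Cdk4 (241) and Ccna2 (206) led and Ccnd3 was again lowest (73.7). There the ranges of Cdk1, Ccne1 and Ccne2 overlapped from one neighbour to the next. Ccnd3 thus went from rank 4 to rank 10 with each ligand, and Ccne2 from rank 10 to rank 6. The order depends on the divisor, which joins the exons of all annotated transcripts of a gene, so the ranks reflect annotated lengths as well as reads. With only the exonic bases that no other gene covers, a choice made after seeing the data, Cdk4, Ccnd1 and Ccna2 still led in each group and Ccnd3 had the same ranks, but Ccnb1 was lowest with DMSO, and Ccne2 went from rank 9 to rank 5 with ET-3 and rank 4 with NT.

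Among the other cyclins and CDKs of the cell cycle, 12 of 14 listed genes were tested, and 5 rose and 4 fell with ET-3 and 4 rose and 4 fell with NT, or 6 and 4 and 5 and 4 with libraries scaled to their totals. Over all tested genes 30.6% rose and 33.2% fell with ET-3 and 29.7% and 32.5% with NT. Named after their values were seen, the falling genes were Ccng1, Ccng2, Ccny and Mnat1 with each ligand. Ccng1, a cyclin induced by p53, had 1146 and 1226 scaled reads under DMSO, 712 and 674 under ET-3, and 653 and 662 under NT (log2 fold changes -0.77 and -0.85, adjusted p 6.57e-07 and 3.73e-07). Cdk6, the other partner of D-type cyclins, had 1127 and 877 scaled reads under DMSO, 1250 and 1249 under ET-3, and 1338 and 1361 under NT (log2 fold changes 0.33 and 0.44, adjusted p 0.00956 and 0.00191). Ccnb2, the second B-type cyclin, had 256 and 251, 347 and 338, and 355 and 325 in the same order (0.43 and 0.42, adjusted p 0.000243 and 0.000309). Both had higher values with the ligands, as Ccnb1 did. Ccnf, an F-box protein of the cyclin family that targets substrates for degradation, had 247 and 235, 483 and 511, and 512 and 562 (1.04 and 1.15, adjusted p 4.52e-07 and 2.40e-07). Ccno, a cyclin-like protein of ciliated cells, had very low values, 4 and 1 scaled reads under DMSO, 14 and 10 under ET-3, and 12 and 9 under NT, and passed the test (adjusted p 0.00433 and 0.00737).

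Among cyclins and CDKs of transcription and other processes, 7 of 20 tested genes rose and 8 fell with ET-3, and 7 rose and 7 fell with NT, near the shares of all tested genes. With libraries scaled to their totals 9 rose and 7 fell with ET-3, and 8 rose and 5 fell with NT. Cdk5r1, the activator of Cdk5, had 486 and 441 scaled reads under DMSO, 143 and 146 under ET-3, and 165 and 141 under NT (log2 fold changes -1.67 and -1.60, adjusted p 1.96e-07 and 2.96e-07). Cdk18, a kinase of the PCTAIRE group, had 255 and 251, 80 and 81, and 72 and 80 in the same order (-1.64 and -1.72, adjusted p 7.25e-07 and 5.56e-07). The median of this list was 0.02 with ET-3 and -0.02 with NT, close to that of all tested genes, and 0.11 and 0.10 with libraries scaled to their totals, which moved all genes by a similar amount.

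The inhibitors of CDKs were lower with the ligands or showed no change that passed the test. Of 7 genes, 6 fell with ET-3 and 5 with NT, against 33.2% and 32.5% of all tested genes. Of the 7, 0 rose, against 30.6% and 29.7%. With libraries scaled to their totals 5 and 4 fell. Cdkn2c with each ligand and Cdkn2b with NT then had values just above 0 that did not pass. Cdkn1a, which encodes p21, had 1431 and 1594 scaled reads under DMSO, 783 and 791 under ET-3, and 664 and 626 under NT (log2 fold changes -0.94 and -1.23, adjusted p 4.09e-07 and 7.13e-08). Cdkn1c, which encodes p57, had 145 and 143 under DMSO, 4 and 2 under ET-3, and 6 and 7 under NT (-5.23 and -4.28, adjusted p 4.91e-07 and 2.12e-06). The drop of Cdkn1c was thus to near 0 in all 4 treated libraries, while that of Cdkn1a left many reads. Cdkn1b, which encodes p27, had 445 and 493, 394 and 390, and 414 and 408 (-0.26 and -0.19, adjusted p 0.00417 and 0.0215), and its call with NT was lost when libraries were scaled to their totals (0.292).

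Genes that phosphorylate, dephosphorylate or dock onto CDKs rose in 6 of 7 cases with ET-3 and in 7 of 7 with NT, or in 7 of 7 with each ligand with libraries scaled to their totals. Over all tested genes 30.6% rose and 33.2% fell with ET-3, and 29.7% rose and 32.5% fell with NT. Cdc25a, the phosphatase that activates Cdk2 and Cdk1, had 284 and 265 scaled reads under DMSO, 676 and 632 under ET-3, and 628 and 619 under NT (log2 fold changes 1.25 and 1.18, adjusted p 5.83e-08 and 9.34e-08). Of 7 genes of cyclin degradation, 4 rose and 1 fell with ET-3, and 4 rose and 2 fell with NT, beside the same shares. With libraries scaled to their totals 5 rose with each ligand.

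Among pocket proteins, E2F factors and the DREAM and MuvB complexes, which control cyclin and CDK genes, 11 of 19 rose and 4 fell with ET-3, and 11 rose and 2 fell with NT. Over all tested genes 30.6% rose and 33.2% fell with ET-3, and 29.7% rose and 32.5% fell with NT. With libraries scaled to their totals 12 rose and 2 fell with ET-3, where E2f8 and Lin37 did not pass, and the counts with NT were the same. Rb1, the retinoblastoma protein and main substrate of Cdk4, had 1258 and 1298 scaled reads under DMSO, 297 and 279 under ET-3, and 322 and 348 under NT (log2 fold changes -2.15 and -1.93, adjusted p 2.75e-09 and 4.67e-09). Mybl2, the activator of mitotic genes that binds MuvB, had 189 and 167, 478 and 471, and 469 and 469 (1.41 and 1.40, adjusted p 8.07e-08 with ET-3). E2f5, a repressor of the E2F family, had 59 and 57, 125 and 149, and 135 and 144 (1.22 and 1.25, adjusted p 1.74e-05 with ET-3). Of the 19 genes, Rb1 thus had the largest decrease and Mybl2 the largest increase, with either ligand against DMSO.

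**Figure D4:**
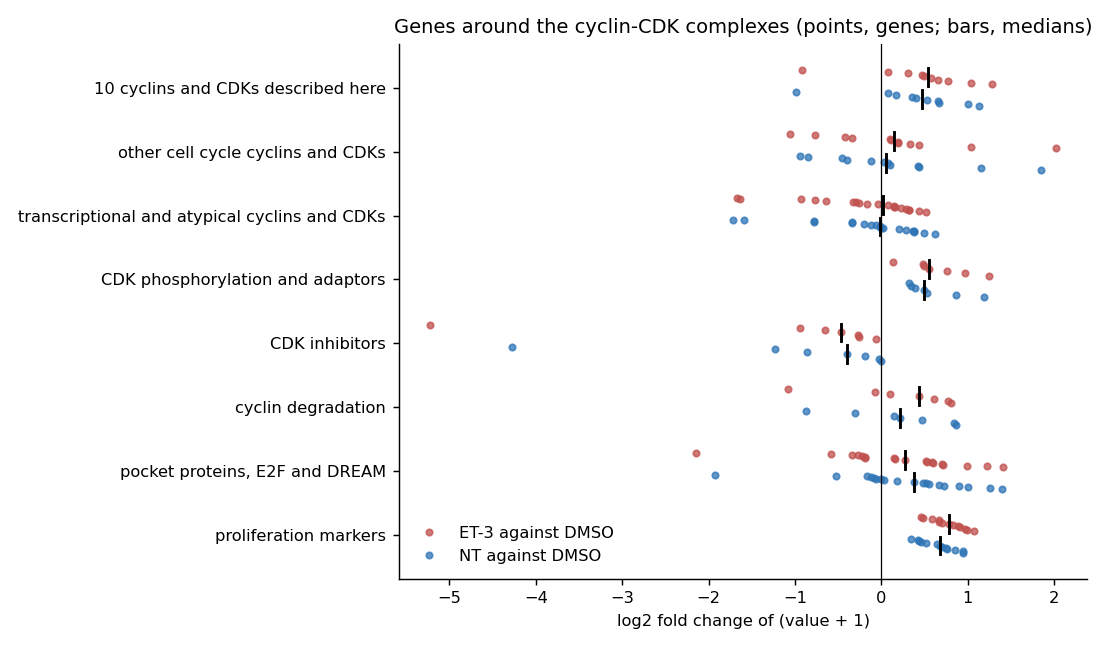
Log2 fold change of the value plus 1 against DMSO (horizontal axis) of each tested gene (points) in 8 lists, with ET-3 in red and NT in blue and list medians as bars. The 7 CDK inhibitors lie below 0 in this scaling, though Cdkn2c with each ligand and Cdkn2b with NT came above it when libraries were scaled to their totals, and the 13 proliferation markers lie above 0 with both ligands.

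All 13 proliferation markers, among them Mki67 and the Mcm genes, rose with each ligand, against 30.6% of all tested genes with ET-3 and 29.7% with NT. Their median log2 fold change was 0.78 with ET-3 and 0.68 with NT. Their summed level was 8817 to 9182 scaled reads with DMSO, 14465 to 14831 with ET-3 and 13223 to 13950 with NT. Of 9 tested MuSC markers, 4 rose and 3 fell with ET-3, and 4 rose and 5 fell with NT, beside 30.6% and 33.2% of all tested genes with ET-3 and 29.7% and 32.5% with NT. With libraries scaled to their totals 5 rose and 2 fell with ET-3, and 4 rose and 4 fell with NT.

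Markers of other cell types of muscle were low, apart from those of smooth muscle and pericytes. Endothelial markers, 4 of 5 of which are listed, summed to 12 to 24 scaled reads with DMSO, 96 to 104 with ET-3 and 85 to 107 with NT, mostly from Tek and Kdr. Fibroadipogenic markers (3 of 5) summed to 56 to 65, 63 to 75 and 82 to 89, macrophage markers (2 of 5) to 21 to 27, 21 to 45 and 27 to 28, and Schwann cell markers (2 of 4) to 38 to 44, 17 to 18 and 28 to 38. Smooth muscle and pericyte markers (5 of 5) summed to 1948 to 2146 with DMSO, 719 to 783 with ET-3 and 766 to 784 with NT, with Myh11, which defines smooth muscle, at 0 to 4 and Acta2 and Cspg4 as the largest parts. The part of other cell types in the values of the 10 genes was not tested.

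Promoter sequence was examined for motifs of cell cycle control, since most of these genes moved together. RefSeq windows on GRCm38.p6 were matched for 6 of the 10 genes, with 2 starts for Ccnd3, and were not used here for Ccnd1, Ccnd2, Ccne2 and Ccna2. The 250 bases upstream of each RefSeq start were searched on both strands for E2F letters (TTTCCCGC, TTTCGCGC, TTTGCCGC or TTTGGCGC), the cell cycle homology region or CHR (TTTGAA), the CCAAT box (CCAAT) and the GC box (GGGCGG), none of which contains another. Of 32851 windows of this length, 1.86% hold the E2F letters, 16.0% the CHR, 33.8% the CCAAT box and 32.7% the GC box. The windows of Cdk1, the kinase that rose most with each ligand, of Cdk4, which rose with ET-3 and did not pass with NT, and of the first start of Ccnd3, which fell, are shown 5′ to 3′ with all motif letters in capitals. They lie at chr10:69352913-69353162 (minus strand), chr10:127063285-127063534 (plus strand) and chr17:47504801-47505050 (plus strand).
Cdk1: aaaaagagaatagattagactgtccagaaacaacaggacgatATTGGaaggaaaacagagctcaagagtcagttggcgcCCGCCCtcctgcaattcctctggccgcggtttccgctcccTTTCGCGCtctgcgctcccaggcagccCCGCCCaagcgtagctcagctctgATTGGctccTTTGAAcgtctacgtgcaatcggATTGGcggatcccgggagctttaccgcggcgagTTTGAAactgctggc
Cdk4: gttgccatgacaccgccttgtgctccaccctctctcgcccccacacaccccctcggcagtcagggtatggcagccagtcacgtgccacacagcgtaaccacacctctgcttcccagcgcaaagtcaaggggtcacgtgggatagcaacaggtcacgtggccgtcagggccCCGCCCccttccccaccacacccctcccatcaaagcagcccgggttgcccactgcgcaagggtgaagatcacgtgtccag
Ccnd3: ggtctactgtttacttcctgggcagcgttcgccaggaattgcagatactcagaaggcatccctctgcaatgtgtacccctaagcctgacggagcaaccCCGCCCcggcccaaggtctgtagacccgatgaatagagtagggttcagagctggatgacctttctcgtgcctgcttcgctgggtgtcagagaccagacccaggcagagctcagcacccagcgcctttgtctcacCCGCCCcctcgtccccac
The Cdk1 window holds 1 E2F match, 2 CHR, 3 CCAAT boxes and 2 GC boxes, and its last 26 bases lie in a GENCODE exon of Cdk1. The Cdk4 window holds 1 GC box and the Ccnd3 window 2 GC boxes, with 0 of the other letters in these windows. In the windows not shown, Ccnb1 has 2 CCAAT boxes and 3 GC boxes, Cdk2 has 1 E2F match, 1 CCAAT box and 5 GC boxes, Ccne1 has 4 GC boxes, and the second start of Ccnd3 has 1 CCAAT box and 1 GC box. The last 84 bases of the Ccnb1 window lie in a GENCODE exon of Ccnb1, and its CCAAT box 67 to 63 bases upstream is among them. Own exons also cover 44 bases of the Ccne1 window and 31 of the second Ccnd3 window, and the Cdk2 window overlaps an exon of Pmel. The 2 E2F matches thus lie upstream of Cdk1 and of Cdk2, a gene that rose with both ligands and one with small fold changes. The counts are per gene, and which start the reads came from was not tested.

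**Figure D5:**
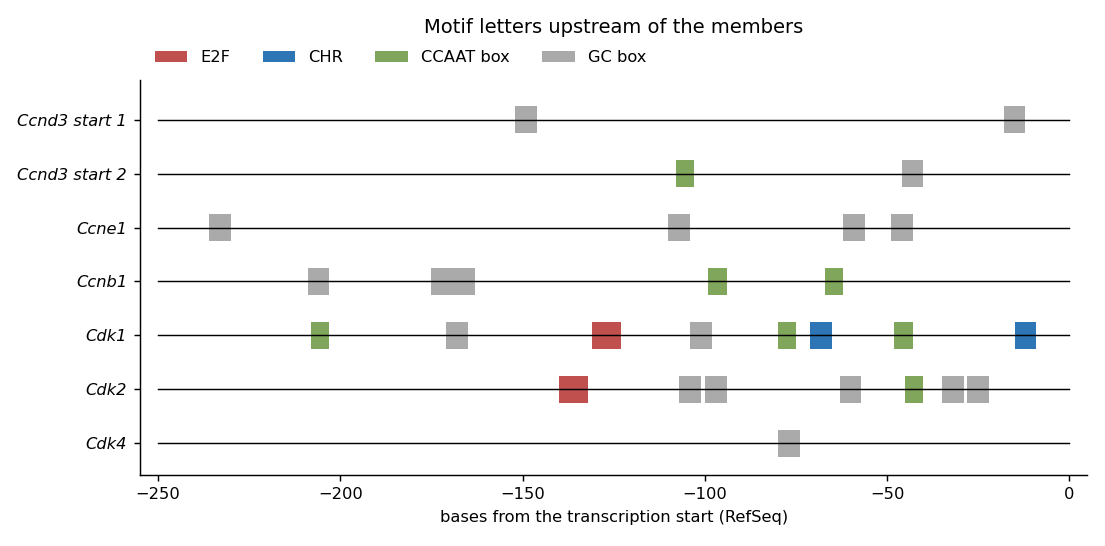
Position of motif letters on either strand (boxes) in the 250 bases upstream of the RefSeq start (horizontal axis, in bases) of 6 of the genes, with 2 starts for Ccnd3. E2F boxes appear for Cdk1 and Cdk2 and CHR boxes for Cdk1.

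Genes with the profiles most like those of Cdk1, Ccnd1 and Ccnd3 were named by the root mean square difference of centred log2 profiles over the 6 libraries, among 10208 genes with a mean of at least 50 scaled reads. Closest to Cdk1 were Tacc3 (0.018), Anln (0.020) and Shcbp1 (0.020). Tacc3, a spindle protein, had 410 and 410 scaled reads under DMSO, 659 and 644 under ET-3, and 615 and 588 under NT. Closest to Ccnd1 were Plaur (0.054), which encodes the urokinase receptor, Fosl1 (0.058), a subunit of the AP-1 transcription factor, and Cyb5a (0.064). Plaur had 292 and 267, 751 and 661, and 627 and 583 scaled reads in the same order. Closest to Ccnd3 were Acsl3 (0.026), Map4 (0.032) and Jund (0.042), all lower in the 4 treated libraries than in either DMSO library. These differences are descriptions over 6 libraries and carry no test.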

How the data were processed

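RNA-seq was performed on cultured MuSCs, with 2 libraries per group and groups taken from the sample labels. According to the submitters' processing notes and the paper, the authors trimmed reads, aligned them to mm10 (GRCm38) with STAR and counted exonic reads per gene with featureCounts, without reads on several genes or regions. The 2 sources name different library kits and versions (the notes list Trimmomatic 0.38, STAR 2.7.7a and featureCounts 1.6.5). The deposited values are a read signal: whole numbers that behave as counts rescaled library by library and then rounded, with estimated factors between 0.781 and 1.19. In the 3 libraries with factors above 1, 38, 48 and 25 of the whole numbers up to 300 cannot be reached by such counts, and 0 genes lay at them. The scaling is not described in the sources used here.

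Values were analysed as log2(value + 1) with limma 3.58.1 (lmFit, contrasts, eBayes with trend) in R 4.3.3, with all 6 libraries in 1 fit and no block. Genes with a mean of at least 5 were tested (13921 of 18943), with Benjamini-Hochberg adjustment over all of them in each of 3 comparisons. Genes passed at an adjusted p up to 0.05, and the 2-fold limit is that of the study. Because the values are not raw counts, no count test was run. Exonic lengths and overlaps came from GENCODE M21, and promoter windows from RefSeq on GRCm38.p6. Chi-square values compared the 2 libraries of a group over genes with at least 10 reads.

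Same-numbered libraries of different groups did not deviate together (r between -0.07 and -0.01 over genes). Since the libraries of each ligand differed by less than sampling noise over all genes, this cannot show whether the numbers pair the samples. The 10 genes and all lists were chosen with earlier results of these data known. All 10 genes are named. From the lists of regulators, genes past 2-fold with both ligands in 1 direction (at most 4 a list) and Cdk6, Ccnb2, Cdkn1a, Cdkn1b, Cdkn1c and Rb1 are named. Ccng1, Ccng2, Ccny, Mnat1, Cdkn2b, Cdkn2c, E2f8 and Lin37 do not meet this rule and were named after their values were seen. Alternatives covered the scaling (library totals, upper quartile), the pseudocount (0.5 and 5), the filter, the trend, a replicate block, a fit of the compared groups alone, each treated pair averaged, and each library left out. Python 3.11.15, numpy 2.4.6, pandas 2.3.3 and matplotlib 3.10.9 were used.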

Additional observations from a re-analysis of the deposited data

How the results depend on the processing

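No fold change of the 10 genes changed sign under any of the 13 alternatives. Of the values of single genes under the alternatives, 124 stayed on the same side of the threshold with ET-3 against DMSO, 1 came past it and 5 lost it, and the numbers were 121, 1 and 8 for NT and 111, 0 and 19 for NT against ET-3. With libraries scaled to their totals, the median log2 fold change of the 10 genes was 0.62 with ET-3 and 0.58 with NT. With each treated pair averaged, which leaves the spread to the 2 DMSO libraries, 5 genes passed the adjusted p and 1 the 2-fold limit with each ligand, and over all genes 3997 and 3457 passed in place of 8873 and 8659. At a pseudocount of 5, 1 gene passed the 2-fold limit with NT. With 1 library left out, between 1 and 2 genes passed that limit with ET-3 and between 0 and 3 with NT, the lowest counts being those without the second DMSO library. For NT against ET-3, 1 gene passed at a pseudocount of 0.5, and 0 passed without the filter, without the trend, in a fit of the 2 groups alone, with each pair averaged, and in each fit with 1 of the 4 ligand libraries left out, while the calls over all genes went from 375 to 185 at a pseudocount of 0.5, to 5 without the trend and to 0 in the other fits of this kind. With the replicate block 0 of the 10 passed for NT against ET-3, and the block changed no call of the 10 genes against DMSO. With NT, Cdk2 had an adjusted p of 0.0872 without the trend. The causes were not tested. With 2 libraries per group, a library left out leaves 1 in its group, which is assumed to vary like the others, and the depth limits single values to the counting error given above.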
